A study of Mus musculus with 10 samples.

Results

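The transcripts described here are those of 9 genes of the B cell receptor and of B cell identity: the heavy chain constant genes Ighm and Ighd, the light chain constant genes Igkc and Iglc2, the joining chain gene Jchain, the receptor signalling subunits Cd79a and Cd79b, the surface protein gene Ms4a1 and the transcription factor gene Pax5. They were taken by gene symbol from a count table of 56691 genes, and each of the 9 symbols stood on 1 entry. The mice were male, aged 10 weeks, and had 8 weeks of chow, and 1 library was made from the visceral fat of each. The 5 aADM2-tg mice (tg1 to tg5) are described as overexpressing adrenomedullin 2 in fat, and the 5 WT mice (WT1 to WT5) carry no transgene by their labels. What promoter drives the transgene, and the strain of the mice, were not given in the sources used here. The labels call the material mature adipocytes, but every library also held reads of leukocyte, macrophage and red blood cell genes, so it is treated here as whole fat tissue.

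The groups follow the sample labels. The first header line of the table names the columns in the opposite sense from the second line, which the labels follow. Adm2 cannot decide between them, because it had 2 counts in WT3 and 0 in the other libraries, where a count of 0 allows a level of up to 3 counts, or 0.165 to 0.187 counts per 1e6 counted reads (CPM). Every direction below therefore rests on the labels. Counted reads ranged from 16030435 in tg3 to 18214504 in tg4. Of 16591 genes that passed a filter on low counts, edgeR's quasi-likelihood test with Benjamini-Hochberg adjustment at 0.05 put 2285 higher in aADM2-tg and 2107 lower. Duct and ciliated epithelium genes set libraries apart across the groups: the summed level of 14 such genes was 399 CPM in tg2 and 13.2 to 36.7 CPM in the other aADM2-tg libraries, against 24.7 CPM in WT1 and 123 to 289 CPM in the other WT libraries.

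A B cell carries its antibody as a membrane receptor made of heavy and light chains, and CD79a and CD79b pass its signal into the cell. Naive B cells make IgM and IgD from the same heavy chain locus by alternative splicing, activated cells can switch to IgG or IgA, and plasma cells secrete antibody in large amounts and shut down Pax5 and Ms4a1. The J chain links IgM and IgA units into their secreted polymers. Visceral fat holds small clusters of lymphoid tissue rich in B cells, among them B-1 cells that make natural IgM.

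Of the 9 genes, 1 was higher in aADM2-tg and 0 were lower, where 13.8 percent of all tested genes were higher, 12.7 percent were lower and 26.5 percent were called in either direction. At an unadjusted p of 0.05 in edgeR 4 of the 9 were higher and 0 lower. DESeq2 called 4 higher, Ighm, Igkc, Iglc2 and Jchain, where it called 11.8 percent of all genes higher, and 0 lower. The gene called was Ighm, and its fitted change was 2.57-fold. A count of 1 among 9 is near the share over all genes. All 9 genes passed the filter on low counts. Their median log2 change was 0.95, beside 0.02 over all tested genes. An unadjusted p of 0.05 was passed by 39.9 percent of all tested genes in either direction. In these bulk libraries fewer cells of a type and less RNA per cell cannot be told apart.

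Levels between genes were compared per length, as reads per kilobase of exon and per 1e6 counted reads (FPKM). Over the 10 libraries Ighm had the highest median level, 141 FPKM, followed by Igkc at 28.1 FPKM and Jchain at 2.46 FPKM. Cd79b, Cd79a, Ighd and Iglc2 lay close together, with medians of 1.24, 1.06, 1.05 and 0.967 FPKM. Ms4a1, which encodes the surface protein CD20, had a median of 0.235 FPKM, and Pax5, the factor that holds cells in the B lineage, 0.0832 FPKM. Ighm exceeded Igkc in 9 of 10 libraries, tg5 being the exception. Igkc exceeded Jchain, Iglc2 exceeded Ms4a1 and Ms4a1 exceeded Pax5 in 10 of 10. The 4 genes in the middle had no steady order: Cd79b exceeded Cd79a in 4 libraries, Cd79a exceeded Ighd in 5 and Ighd exceeded Iglc2 in 4.

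**Figure D1:**
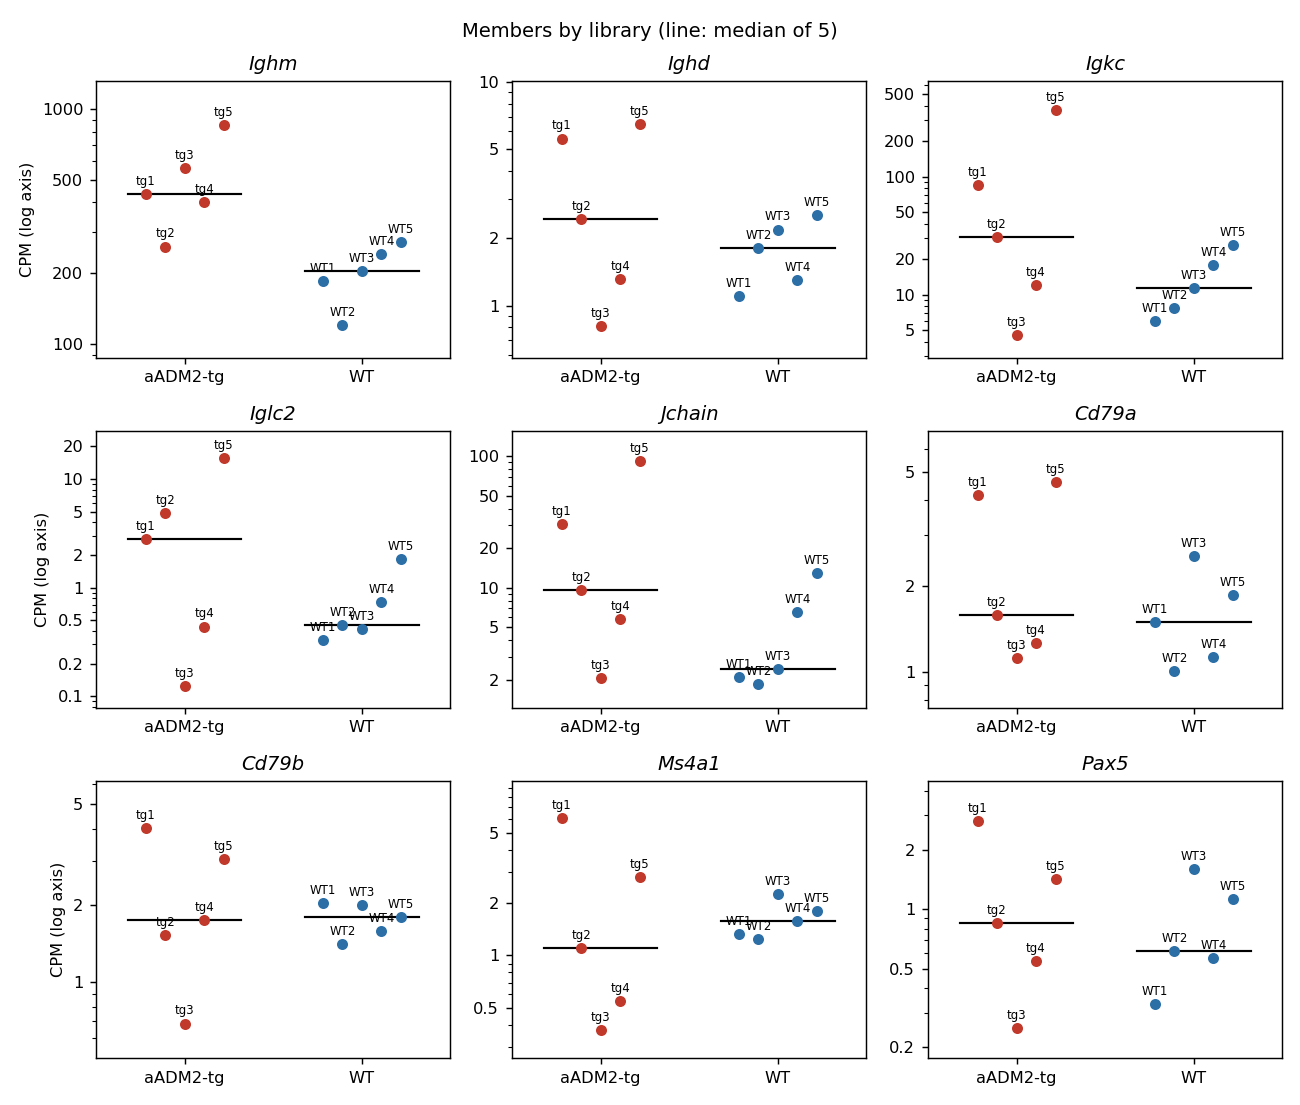
Level of each of the 9 genes in each library, in CPM on a log axis that differs between panels, with aADM2-tg libraries on the left and WT libraries on the right and a line at the median of 5. Ighm is the gene whose groups overlap least, with tg2 alone inside the WT range, while tg5 and tg1 lie at the top and tg3 at the bottom of the aADM2-tg group for Igkc, Ighd, Cd79b, Ms4a1 and Pax5.

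Ighm, the constant gene of the IgM heavy chain, lies on chromosome 12 at 113382178 to 113386350 on the minus strand in the table, whose genome build was not given in the sources used here. It had 434.5, 259.8, 562.9, 400.6 and 850.7 CPM in tg1 to tg5, against 184.6, 120.6, 203.8, 241.4 and 271.6 CPM in WT1 to WT5. All aADM2-tg libraries lay above the WT median, and 4 of 5 lay above every WT library, tg2 being below WT5. Means were 502 ± 223 CPM in aADM2-tg and 204 ± 57.7 CPM in WT (SD, n = 5 each). The fitted log2 change was 1.36 (SE 0.31), with an adjusted p of 0.0113 in edgeR. Leaving out each library in turn gave log2 changes between 1.11 and 1.53, the lowest without tg5, and adjusted p values between 0.00173 and 0.0285.

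The libraries high in Ighm were also low in duct RNA, so the values are given within each level of duct RNA. Among libraries with little duct RNA, Ighm had 400.6 to 850.7 CPM in tg1, tg3, tg4 and tg5 and 184.6 CPM in WT1. Among libraries with much of it, Ighm had 259.8 CPM in tg2 and 120.6 to 271.6 CPM in WT2 to WT5, so the lone aADM2-tg library lay inside the WT range. With a duct score as a term beside genotype the log2 change of Ighm was 1.00 (SE 0.34) and the adjusted p 0.069 in edgeR, which ends the call. In the 5 libraries with little duct RNA the log2 change was 1.56 with an adjusted p of 0.17 in edgeR, where WT1 stands alone and is assumed to vary like the others.

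Ighd, the constant gene of the IgD heavy chain, lies beside Ighm on chromosome 12. It had 5.58, 2.44, 0.811, 1.32 and 6.49 CPM in tg1 to tg5, against 1.11, 1.80, 2.19, 1.30 and 2.53 CPM in WT1 to WT5. The groups overlapped, with tg1 and tg5 above and tg3 below all WT libraries. With an adjusted p of 0.193 in edgeR, its log2 change of 0.95 (SE 0.52) did not pass the test, and without tg5 it was 0.57. Reads of Ighd per 100 reads of Ighm numbered 1.29, 0.939, 0.144, 0.329 and 0.763 in tg1 to tg5, against 0.5997, 1.49, 1.07, 0.538 and 0.931 in WT1 to WT5. The lowest ratios were those of tg3 and tg4, libraries in which Ighm was above the WT range while Ighd was not.

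Igkc encodes the constant part of the kappa light chain, which most mouse antibodies carry, and lies on chromosome 6 at 70703419 to 70703950 in the table. It had 85.1, 30.9, 4.55, 12.1 and 370 CPM in tg1 to tg5, against 5.92, 7.71, 11.3, 17.7 and 26.1 CPM in WT1 to WT5. The spread within aADM2-tg was wide: tg5, tg1 and tg2 lay above every WT library and tg3 lay below every one. Means were 100.5 ± 154 CPM in aADM2-tg and 13.8 ± 8.26 CPM in WT (SD, n = 5 each). The fitted log2 change was 2.91 (SE 1.01), with an unadjusted p of 0.0152 and an adjusted p of 0.0548 in edgeR, just outside the threshold. Without tg5 the log2 change was 1.32 with an adjusted p of 0.21, and without tg3 it was 3.22 with an adjusted p of 0.0332, both in edgeR, and it also passed without tg2 (adjusted p 0.0294) or tg4 (adjusted p 0.0456). DESeq2 gave an adjusted p of 0.0185 over all 10 libraries, so the call of Igkc rests on the tool and on which libraries enter.

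Jchain and Iglc2 were, like Igkc, highest in tg5. Jchain had 30.4, 9.63, 2.06, 5.82 and 91.4 CPM in tg1 to tg5, against 2.10, 1.86, 2.42, 6.55 and 13.0 CPM in WT1 to WT5. The aADM2-tg values of tg5 and tg1 lay above every WT library, and the other 3 lay inside the WT range. Its log2 change of 2.46 (SE 0.95) had an adjusted p of 0.0772 in edgeR, and without tg5 it was 1.26 with an adjusted p of 0.274. Without tg2 it was 2.69 and passed, with an adjusted p of 0.0424 in edgeR, and DESeq2 gave 0.0439 over all 10 libraries. Across the 10 libraries the log2 levels of Jchain and Igkc had a Pearson r of 0.976, those of Iglc2 and Igkc 0.944, and those of Ighm and Igkc 0.596. These are descriptions over libraries that share their RNA preparations, and tg5 lies at the top for all of these genes.

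Iglc2 encodes a constant part of the lambda light chain. Among the lambda constant genes compared here, Iglc3 is a near copy of Iglc2, which limits how surely a read can be placed between them. On GRCm38, with transcripts from GENCODE M21, the coding constant segment of Iglc3 was 96.5 percent identical to that of Iglc2 and differed at 11 of 312 positions, while Iglc1 was 73.7 percent identical. The first 72 bases of each segment are shown to let the genes be compared, in lower case with capitals where a base differs from Iglc2. They lie on the minus strand at chr16:19198779-19198850 for Iglc2, chr16:19065608-19065679 for Iglc3 and chr16:19061998-19062069 for Iglc1.
Iglc2: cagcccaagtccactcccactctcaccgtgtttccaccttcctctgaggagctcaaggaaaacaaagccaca
Iglc3: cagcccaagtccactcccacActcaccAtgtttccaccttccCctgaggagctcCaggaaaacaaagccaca
Iglc1: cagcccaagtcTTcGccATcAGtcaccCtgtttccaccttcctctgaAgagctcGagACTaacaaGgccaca
In this stretch Iglc3 differs from Iglc2 at 4 positions and Iglc1 at 14. The longest run shared by Iglc2 and Iglc3 over the whole segment was 79 bases. A read that lies within a shared run cannot be placed between these copies, so it may be split between them or left uncounted. Reads left uncounted would lower the level of Iglc2 and its share beside Igkc. How many reads lie within such runs was not tested.

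Iglc2 had 2.82, 4.88, 0.125, 0.439 and 15.5 CPM in tg1 to tg5, against 0.332, 0.450, 0.414, 0.734 and 1.85 CPM in WT1 to WT5. It passed the filter with 5 libraries, the fewest the filter allows. The value in tg3 was 2 counts and lies under the floor of 3 counts. Its log2 change of 2.67 (SE 1.01) had an adjusted p of 0.0738 in edgeR, and without tg5 it was 1.46 with an adjusted p of 0.246. Without tg3 it was 2.98 and passed, with an adjusted p of 0.0393 in edgeR, and DESeq2 gave 0.0417 over all 10 libraries. Iglc2 reads made up 3.21, 13.7, 2.67, 3.49 and 4.02 percent of Igkc and Iglc2 reads together in tg1 to tg5, against 5.31, 5.52, 3.54, 3.98 and 6.63 percent in WT1 to WT5. The share in tg2 had a Wilson 95 percent interval of 11.1 to 16.7 percent, above the intervals of the other aADM2-tg libraries and of WT3, WT4, WT5 and WT2. The interval of WT1, with 113 light chain reads, reached from 2.46 to 11.1 percent. Such intervals, like the floor of 3 counts, cover counting error only, since several reads can come from 1 molecule. With Iglc1, Iglc2, Iglc3 and Iglc4 summed the share was 14.5 percent in tg2 and 6.14 to 9.88 percent in the other aADM2-tg libraries, against 7.43 to 12.04 percent in WT.

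The signalling subunits of the receptor did not pass the test. Cd79a had 4.14, 1.59, 1.12, 1.26 and 4.59 CPM in tg1 to tg5, against 1.49, 1.01, 2.54, 1.13 and 1.85 CPM in WT1 to WT5. Only tg1 and tg5 lay above the WT range. Its log2 change of 0.71 (SE 0.45) had an adjusted p of 0.257 in edgeR, and without tg5 it was 0.40. Cd79b had 4.02, 1.52, 0.686, 1.76 and 3.04 CPM in tg1 to tg5, against 2.05, 1.41, 2.01, 1.58 and 1.80 CPM in WT1 to WT5. Here tg1 and tg5 were again above the WT range and tg3 was below it, and the fitted log2 change of 0.37 (SE 0.39) had an adjusted p of 0.511 in edgeR. Without tg1 it was 0.02.

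Ms4a1 had 6.12, 1.097, 0.374, 0.549 and 2.80 CPM in tg1 to tg5, against 1.33, 1.24, 2.25, 1.58 and 1.80 CPM in WT1 to WT5. Its aADM2-tg libraries fell on both sides of the WT group, 2 above the highest WT value and 3 below the lowest. The fitted log2 change was 0.47 (SE 0.64) with an adjusted p of 0.61 in edgeR, and without tg1 its sign turned, to -0.40. Pax5 had 2.82, 0.854, 0.249, 0.549 and 1.43 CPM in tg1 to tg5, against 0.332, 0.619, 1.60, 0.564 and 1.12 CPM in WT1 to WT5. Only tg1 lay above the WT range and only tg3 below it. Its log2 change of 0.54 (SE 0.59) had an adjusted p of 0.527 in edgeR, and without tg1 it was -0.08. Pax5 has only 173 counts in all libraries together, and 4 overlapping genes in the table hold 38 counts.

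**Figure D2:**
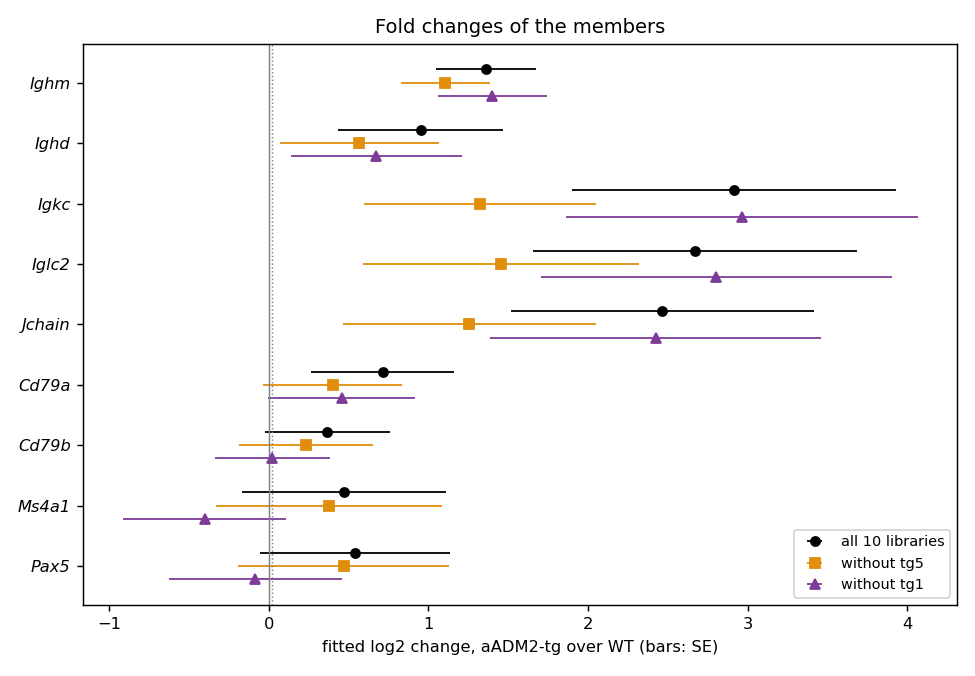
Fitted log2 change of aADM2-tg over WT for each gene, with bars of 1 SE, from all 10 libraries (circles), without tg5 (squares) and without tg1 (triangles), with a solid line at 0 and a dotted line at the median of all tested genes. Leaving out tg5 brings Igkc down to 1.32 and Jchain to 1.26, while leaving out tg1 turns Ms4a1 and Pax5 below 0, and Ighm stays at 1.11 or more.

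The libraries held the antibody chains in unequal proportions. The ratio of Igkc to Ighm, each in FPKM, was 0.694, 0.421, 0.0287, 0.107 and 1.54 in tg1 to tg5, against 0.114, 0.227, 0.196, 0.260 and 0.341 in WT1 to WT5. The highest 3 and the lowest 2 ratios of the 10 libraries were all in aADM2-tg. In tg3 there were 9024 reads of Ighm beside 73 of Igkc, whereas WT5 had 4835 of Ighm beside 465 of Igkc. Reads of heavy chain variable (Ighv) segments per 1000 reads of Ighm numbered 38.8, 20.9, 1.44, 2.33 and 64.0 in tg1 to tg5, against 7.80, 16.3, 10.7, 18.2 and 31.9 in WT1 to WT5. Both tg3 and tg4 were thus low in variable segments and in light chain for their Ighm. Counts per gene do not tell membrane, secreted and unrearranged Ighm transcripts apart.

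**Figure D3:**
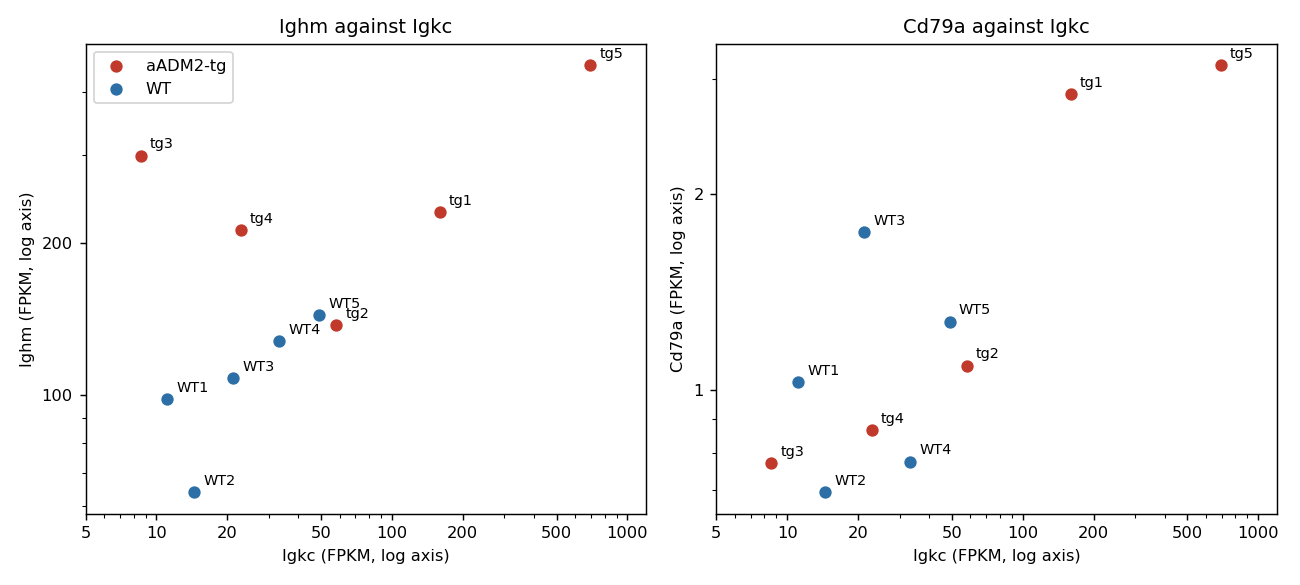
Ighm (left) and Cd79a (right) against Igkc in each library, in FPKM on log axes, with aADM2-tg in red and WT in blue. In the left panel tg3 and tg4 stand above the other libraries of like Igkc level, with 298.5 and 212.4 FPKM of Ighm, while in the right panel both lie within the WT range of Cd79a.

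Variable segments were read as a description of which antibodies the chains belong to. All Ighv, Igkv and Iglv segments together had 1035, 256, 60, 78 and 3553 reads in tg1 to tg5, against 75, 93, 141, 243 and 463 reads in WT1 to WT5. The 3 segments with most reads were Igkv3-2, Igkv14-126 and Ighv10-1, and Ighv11-2 was added after its values were seen. The last 60 bases of each germline segment are shown, since this end joins the next segment and starts the binding loop CDR3, with the codon of the conserved cysteine in capitals. They come from GENCODE M21 transcripts on GRCm38 and lie at chr6:70699008-70699067 and chr6:67896583-67896642 on the plus strand for the kappa segments in the order named, and on the minus strand at chr12:114479005-114479064 for Ighv10-1 and chr12:114048241-114048300 for Ighv11-2.
Igkv3-2: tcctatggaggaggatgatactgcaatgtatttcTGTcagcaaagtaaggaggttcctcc
Igkv14-126: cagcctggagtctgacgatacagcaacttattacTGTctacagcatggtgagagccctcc
Ighv10-1: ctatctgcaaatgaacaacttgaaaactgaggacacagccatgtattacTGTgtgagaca
Ighv11-2: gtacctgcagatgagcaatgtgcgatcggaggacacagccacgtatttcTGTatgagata

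Segments differed in how many mice they were read in. Igkv3-2 had 20, 0, 6, 2 and 837 reads in tg1 to tg5, against 0 in all 5 WT libraries, so tg5 alone held 96.8 percent of them. Ighv10-1 had 3, 8, 8, 0 and 329 reads in tg1 to tg5, against 1, 1, 0, 0 and 0 in WT1 to WT5, and tg5 held 94.0 percent. In tg5 these segments took 34.7 percent of all Igkv reads (Wilson 95 percent interval 32.8 to 36.6) and 36.0 percent of all Ighv reads (32.9 to 39.2). Igkv14-126 was spread over 9 libraries, with 156, 36, 0, 8 and 122 reads in tg1 to tg5, against 5, 9, 10, 40 and 22 reads in WT1 to WT5. Ighv11-2 was spread alike, with 59, 25, 0, 1 and 69 reads in tg1 to tg5, against 1, 10, 4, 25 and 16 reads in WT1 to WT5. As background, mouse B-1a cells that bind phosphatidylcholine are known to pair the Ighv11-2 heavy chain with the Igkv14-126 light chain.

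Other segments that the same kind of cell is known to use, named here after their values were seen, were Igkv4-91, with 14, 25, 5, 0 and 102 reads in tg1 to tg5 against 6, 2, 11, 13 and 22 reads in WT1 to WT5, and Ighv12-3, with 4, 4, 0, 1 and 6 reads in tg1 to tg5 against 2, 3, 1, 10 and 5 reads in WT1 to WT5. A WT library too was dominated by a few segments: WT5 held 59 of the 76 reads of Ighv7-1, likewise named after its values were seen, which took 38.3 percent of its Ighv reads, and its leading kappa segment took 47.8 percent of its Igkv reads. In tg2 all 31 lambda variable reads were of Iglv2, whereas Iglv1 had 49 of 71 such reads in tg1, 5 of 6 in tg3 and 11 of 11 in tg4 and Iglv2 had 181 of 227 in tg5, against 8 of 10 in WT3, 18 of 25 in WT4 and 13 of 16 in WT5 for Iglv1. WT1 and WT2 had 3 lambda variable reads each, too few to rank. Variable segments form a large family of near copies, so reads can be split between neighbours or left uncounted.

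**Figure D4:**
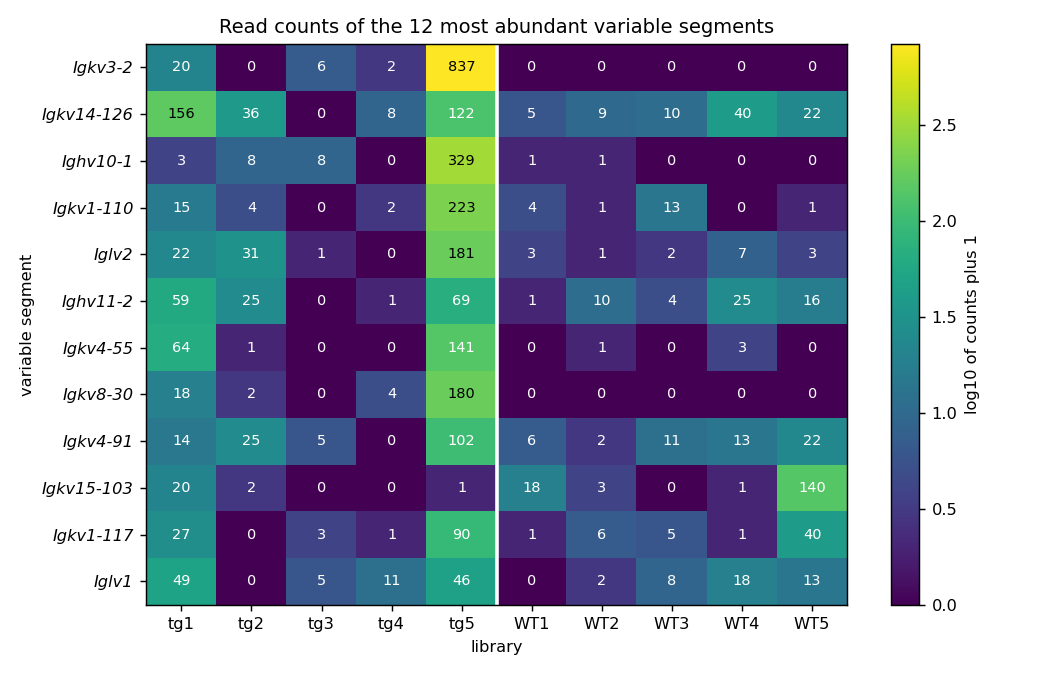
Read counts of the 12 variable segments with most reads, by library, with aADM2-tg left of the white line and WT right of it, coloured by log10 of counts plus 1. Igkv3-2, Ighv10-1 and Igkv8-30 are bright in tg5 alone, and Igkv14-126 and Ighv11-2 are read in both groups.

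The switched heavy chain genes, which encode IgG and IgA, stood low. Of 9 other immunoglobulin constant genes in the table, among them the lambda genes Iglc1, Iglc3 and Iglc4, 0 passed the filter on low counts. Summed over Ighg1, Ighg2b, Ighg2c, Ighg3, Igha and Ighe, the switched genes had 160, 29, 20, 44 and 610 reads in tg1 to tg5, against 3, 9, 9, 2 and 2 reads in WT1 to WT5. The groups did not overlap. Among single tested genes this was so for 17.1 percent in either direction, an unlike set, since the genes of this sum failed the filter. The group totals were 863 reads in aADM2-tg, of which 253 were outside tg5, and 25 reads in WT. No test was run on this sum, which was chosen after its values were seen. Switched reads made up 2.14, 0.670, 0.221, 0.598 and 4.07 percent of heavy chain constant reads in tg1 to tg5, against 0.0893, 0.412, 0.258, 0.0465 and 0.0410 percent in WT1 to WT5. As a share the groups thus overlapped, with tg3 below WT2 and WT3.

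The mice differed in which switched genes they used. Igha, the IgA gene, had 59, 6, 14, 17 and 137 reads in tg1 to tg5, against 3, 5, 3, 1 and 0 reads in WT1 to WT5, and the groups did not overlap. Ighg2b had 30, 3, 2, 0 and 286 reads in tg1 to tg5, against 0, 1, 2, 0 and 0 reads in WT1 to WT5. Ighg3 had 70, 3, 4, 23 and 21 reads in tg1 to tg5, against 0, 3, 4, 1 and 1 reads in WT1 to WT5, with tg1 the highest. With no filter on low counts, edgeR called Igha higher with a log2 change of 4.36 (SE 0.89, adjusted p 0.0083), Ighg3 with 3.81 (SE 0.90, adjusted p 0.0158) and Ighg2b with 6.60 (SE 1.69, adjusted p 0.023), in a fit that called 5.22 percent of 35510 genes higher. DESeq2 called the same 3 genes. Without tg5 the log2 change in edgeR was 3.42 for Igha (adjusted p 0.0181), 3.86 for Ighg3 (adjusted p 0.0265) and 3.77 for Ighg2b (adjusted p 0.0814), so the call of Ighg2b rests on tg5. Without tg1 it was 4.25 for Igha (adjusted p 0.0202), 2.86 for Ighg3 (adjusted p 0.045) and 6.78 for Ighg2b (adjusted p 0.0357) in edgeR, and all 3 passed. These fits were chosen after the counts were seen, and their log2 changes depend on the prior count, since WT libraries lie at or near 0.

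In libraries with much duct RNA, Igha had 6 reads in tg2 and 5, 3, 1 and 0 reads in WT2 to WT5, and Ighg3 had 3 reads in tg2 and 3, 4, 1 and 1 reads in WT2 to WT5. The gap between the groups in these genes thus lies mostly in libraries with little duct RNA, where WT1 had 3 reads of Igha and 0 of Ighg3. Ighg1 and Ighg2c were read mainly in tg5, which held 93.4 and 84.1 percent of their reads. Ighe, the IgE gene, had 0 reads in every library. The IgG genes are close relatives, and their reads may be split between them or left uncounted.

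**Figure D5:**
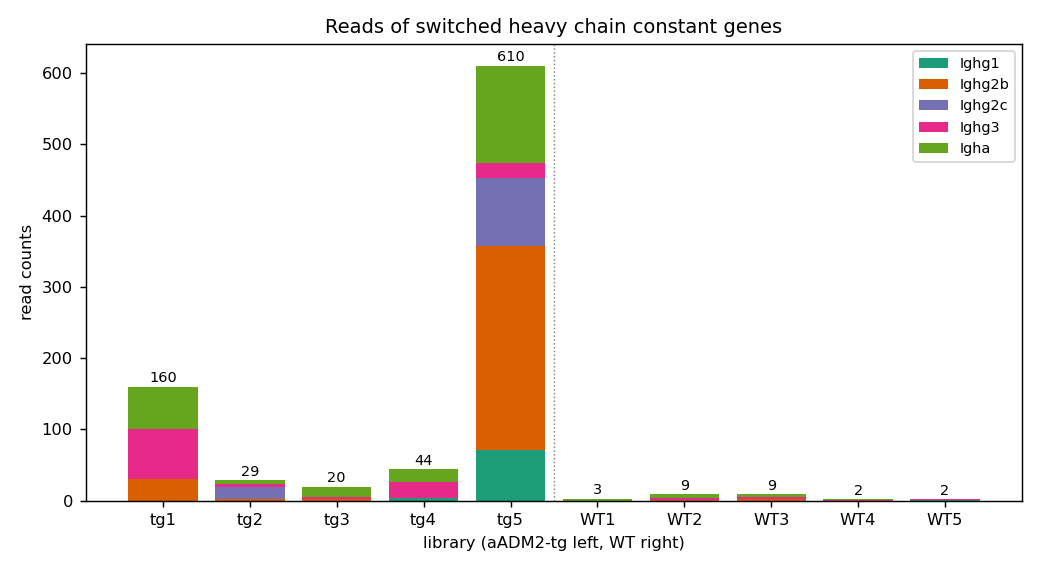
Reads of the switched heavy chain constant genes in each library, stacked by gene, with aADM2-tg libraries left of the dotted line and WT libraries right of it and the sum printed above each bar. The 5 aADM2-tg sums run from 20 to 610 and the 5 WT sums from 2 to 9.

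Promoter sequence was at hand for 3 of the 9 genes, Cd79a, Jchain and Pax5, as RefSeq starts on GRCm38.p6 with 250 bases before and 50 after. Each was searched on both strands for the octamer ATGCAAAT that Oct factors bind, the E-box CAGGTG that E proteins bind and an ETS motif, CAGGAAGT. The 3 motifs do not overlap in these matches. Cd79a held 1 E-box and 1 ETS match, Jchain held 1 E-box match, and Pax5 held none of the 3 motifs. Of 32851 promoters in the table, 20.2 percent hold this E-box, 3.33 percent the ETS motif and 1.74 percent the octamer. The promoters of Cd79a (chr7:24897247-24897546, plus strand) and Jchain (chr5:88527848-88528147, minus strand) are shown because both genes were highest in tg5 and tg1, with the matches in capitals.
Cd79a: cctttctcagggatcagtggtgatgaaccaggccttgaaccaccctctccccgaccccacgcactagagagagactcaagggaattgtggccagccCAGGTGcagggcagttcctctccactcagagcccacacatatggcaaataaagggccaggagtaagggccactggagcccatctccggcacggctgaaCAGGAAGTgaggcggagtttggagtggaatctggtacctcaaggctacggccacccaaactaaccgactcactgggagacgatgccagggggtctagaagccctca
Jchain: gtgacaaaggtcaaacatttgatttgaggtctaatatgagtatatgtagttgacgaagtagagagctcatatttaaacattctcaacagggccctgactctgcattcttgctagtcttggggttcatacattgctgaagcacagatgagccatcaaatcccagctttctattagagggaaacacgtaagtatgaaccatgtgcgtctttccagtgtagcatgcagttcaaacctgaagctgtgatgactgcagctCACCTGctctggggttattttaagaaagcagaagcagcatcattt
A match describes the letters in this window and does not show that a factor binds there.

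Of 24 B cell identity genes beside the 9, 19 were tested and edgeR called 0 of them, with a median log2 change of 0.09. At an unadjusted p of 0.05 0 were higher and 2 lower, and DESeq2 called 0 higher and 1 lower. The 2 most abundant were Ebf1, a B cell transcription factor that fat cells also express, with 168 to 218 CPM in aADM2-tg and 182 to 229 CPM in WT, and Cd37, with 7.11 to 16.3 CPM in aADM2-tg and 9.19 to 11.2 CPM in WT. Of 16 genes of B cell receptor signalling 1 was higher and 2 lower. Cd81, a surface protein gene expressed in many cell types, was higher by 0.16 on the log2 scale (adjusted p 0.0463 in edgeR), and Fcgr2b, the inhibitory IgG receptor, and Dapp1, an adaptor, were lower by log2 values of -0.48 and -0.52.

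Of 9 tested plasma cell genes 2 were higher and 0 lower. Their median log2 change was 0.06, with 5 of the 9 changes above 0. Xbp1, which drives the secretory machinery, had 359, 268, 312, 281 and 582 CPM in tg1 to tg5, against 244, 208, 229, 239 and 223 CPM in WT1 to WT5, with a log2 change of 0.72 (SE 0.19) and an adjusted p of 0.0216 in edgeR. Its groups did not overlap and tg5 was the highest. Irf4, a factor needed for plasma cells, had 20.8, 17.8, 74.3, 8.62 and 28.3 CPM in tg1 to tg5, against 13.7, 11.5, 8.57, 10.4 and 12.2 CPM in WT1 to WT5. Its highest library was tg3, where Igkc and Ms4a1 were lowest, and its log2 change was 1.49 (SE 0.49) with an adjusted p of 0.0457 in edgeR. Both genes are also expressed outside B cells. Prdm1, which encodes the plasma cell factor Blimp-1 and was named after its values were seen, did not pass the test (adjusted p 0.0793 in edgeR), with 1.06 to 2.98 CPM in aADM2-tg and 3.19 to 4.55 CPM in WT, where the groups did not overlap.

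Of 4 tested germinal centre genes 2 were lower, S1pr2 at 4.49 to 6.66 CPM in aADM2-tg against 9.69 to 11.4 CPM in WT, and Mybl1 at 1.07 to 2.26 CPM in aADM2-tg against 2.32 to 4.33 CPM in WT. The other 2 did not pass. Of 4 tested B-1 cell genes edgeR called 0, also at an unadjusted p of 0.05, and DESeq2 called 0. Bhlhe41, the most abundant of them, had 15.1 to 31.7 CPM in aADM2-tg and 20.4 to 45.0 CPM in WT, and Plscr1 had 4.23 to 13.4 CPM in aADM2-tg and 4.71 to 11.2 CPM in WT. Cd79a, by comparison, had 1.12 to 4.59 CPM in aADM2-tg and 1.01 to 2.54 CPM in WT. Which cells the reads of Bhlhe41 and Plscr1 came from was not tested, so the lack of calls says little about B-1 cells. Cd5, also on this list and named after its values were seen, failed the filter on low counts. It had 0.0624 to 0.549 CPM in aADM2-tg and 0 to 0.355 CPM in WT. With no filter on low counts edgeR called 0 genes of this list. Of 9 tested genes that attract B cells or keep them alive 1 was higher. This was Cxcl12, a chemokine of stromal cells, with 191 to 315 CPM in aADM2-tg against 131 to 161 CPM in WT and a log2 change of 0.93 (SE 0.12, adjusted p 0.0012 in edgeR). Cxcl13, the chemokine that draws B cells into lymphoid clusters, was named after its values were seen and had 24.1, 3.54, 1.87, 1.32 and 17.3 CPM in tg1 to tg5, against 4.37, 2.14, 4.67, 1.58 and 2.70 CPM in WT1 to WT5. It was high in tg1 and tg5, as were most of the 9 genes, and its log2 change of 1.68 (SE 0.76) had an adjusted p of 0.124 in edgeR.

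Markers of other cells are set beside the shares over all tested genes, 13.8 percent higher and 12.7 percent lower. The counts of called T cell, blood and pan-leukocyte genes below are near these shares. Of 11 macrophage genes 4 were lower and 0 higher, their summed level being 620 to 1081 CPM in aADM2-tg and 1133 to 1401 CPM in WT. The 4 were Adgre1, Mrc1, Csf1r and Itgam. Of 12 tested T cell genes 2 were higher, the receptor subunits Cd3e and Cd3g, at 0.811 to 1.73 and 0.914 to 2.09 CPM in aADM2-tg against 0.225 to 0.768 and 0.473 to 0.788 CPM in WT. The median log2 change of the 12 was 0.45, with 8 of them above 0. The sum of the T cell list was 31.8 to 41.7 CPM in aADM2-tg and 29.5 to 43.9 CPM in WT. Thy1, named after its values were seen, held much of this sum, at 10.1 to 17.0 CPM in aADM2-tg and 12.7 to 26.3 CPM in WT. Of 4 tested NK cell genes edgeR called 0, also at an unadjusted p of 0.05, and DESeq2 called 0, with Gzma at 0.437 to 1.43 CPM in aADM2-tg and 0.827 to 2.14 CPM in WT and Klrb1c at 0.499 to 1.25 CPM in aADM2-tg and 0.508 to 1.24 CPM in WT. Of 7 tested MHC class II genes edgeR called 0, with 3 higher at an unadjusted p of 0.05, and DESeq2 called 2 higher. Cd74 was at 319 to 633 CPM in aADM2-tg and 361 to 455 CPM in WT, and H2-Aa at 232 to 397 CPM in aADM2-tg and 203 to 264 CPM in WT, with tg5 the highest for both. The pan-leukocyte gene Ptprc was the 1 of 6 of its list that was lower, at 27.0 to 42.6 CPM in aADM2-tg and 42.0 to 52.4 CPM in WT. Blood genes summed to 235 to 1155 CPM in aADM2-tg and 202 to 587 CPM in WT. In edgeR 1 of 6 was higher, Hba-a2, whose reads can be split with a near copy or left uncounted. At an unadjusted p of 0.05 in edgeR 5 of these 6 were higher and DESeq2 called 2 higher, and their median log2 change was 0.99, beside 0.95 for the 9 genes. Of 8 mature adipocyte genes 5 were higher, the first 4 by adjusted p being Cidec, Plin1, Retn and Fabp4, and their list summed to 22028 to 31214 CPM in aADM2-tg and 19439 to 22159 CPM in WT. Of 13 tested duct genes edgeR called 0, also at an unadjusted p of 0.05, and DESeq2 called 0. Krt8 was at 76.6 CPM in tg2 and 2.36 to 12.6 CPM in the other aADM2-tg libraries, against 6.86 CPM in WT1 and 23.2 to 55.3 CPM in the other WT libraries, and the ciliary factor gene Foxj1 at 57.2 CPM in tg2 and 0 to 0.110 CPM in the other aADM2-tg libraries, against 0.0554 CPM in WT1 and 10.9 to 37.4 CPM in the other WT libraries. The part of these markers in the results on the 9 genes was not tested.

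The genes whose log2 levels over the 10 libraries were most like the mean of the 9 genes were Zhx2 (Pearson r 0.962), Sptlc1, Eps15l1, Safb2, Pou2af1 (0.939), Sptan1, Gm37963 and Flii. Pou2af1, a B cell coactivator, is the B cell gene among them. It had 3.60, 0.854, 0.125, 0.549 and 4.71 CPM in tg1 to tg5, against 0.388, 0.675, 1.54, 0.790 and 1.348 CPM in WT1 to WT5. Zhx2 varied far less, from 39.9 to 48.8 CPM in aADM2-tg and 41.2 to 45.0 CPM in WT. None of the 8 was called in the comparison of the groups. Among the 9 genes themselves, Ighm stood apart in this measure, with an r of 0.0514 with Ms4a1, 0.180 with Cd79b and 0.191 with Pax5, whereas Ms4a1 and Cd79b had an r of 0.881. The 8 genes most like Ighm alone were Myo1c (0.968), Aen (0.961), Gas2l1, Csrnp1, a gene without a symbol, Pdlim7, Mus81 and Klf4 (0.947). None of these is on the B cell lists used here, and edgeR called each of them higher in aADM2-tg. What Ighm shares with them was not tested. These values are descriptions over 10 libraries, which share the group difference and the levels of tg1, tg3 and tg5.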

How the data were processed

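Poly(A) RNA from visceral fat was sequenced in 5 aADM2-tg and 5 WT mice. The deposited table holds read counts per gene as the authors made them, 1 column per mouse, with exonic lengths. Its 10 further columns of per-sample values, named as FPKM, were not used, and FPKM was computed here from counts and lengths. HISAT2 2.2.1 and HTSeq 0.6.1 are listed in the submitters' processing notes. Build, annotation and strand setting were not given in the sources used here. The labels disagree on the numbers of 3 libraries, tg3, tg4 and tg5, which follow the column names. The column names of tg3 and tg5 also carry the same library identifier, though their counts differ.

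Counts were tested in edgeR 4.0.16 (R 4.3.3) with filterByExpr at a minimum count of 10, TMM scaling and quasi-likelihood tests, with no term but genotype, on all 10 libraries, and Benjamini-Hochberg adjustment over 16591 genes at 0.05. SE is the log2 change over the square root of F. Depth was 16030435 to 18214504 reads. P values set the difference between the groups against the spread between mice within a group, which includes their duct RNA. The script was tested on simulated data. Correlations used log2 CPM with a prior count of 2. Alternatives were DESeq2 1.42.0, its size factors in edgeR, limma-trend and voom in limma 3.58.1, other filters, a replicate block, each library left out, a duct score as a term, leaving out WT1 and tg2, the libraries with little duct RNA, and, chosen after seeing the data, robust dispersion and fits of the switched genes with no filter. The duct score is the mean log2 CPM of the duct list. Named genes are the 9 members, in each list the 4 called genes of lowest adjusted p or, where none was called, the 2 most abundant, the 8 genes most like the members' mean (mean of at least 1 CPM), and the 3 variable segments with most reads. Prdm1, Cxcl13, Cd5, Thy1, Ighv11-2, Igkv4-91, Ighv12-3, Ighv7-1, the lambda variable segments, the switched genes and the genes most like Ighm lie outside this rule. They were picked with their values known. The members and lists were chosen with earlier results of these data known. Some genes of the lists are not reported here.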

Additional observations from a re-analysis of the deposited data

Results flagged for a closer look

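In groups of 5, a library was listed when its gap to the nearest of the others was over 0.71 of the range of its group. Of 30 groups looked at 4 met this. The groups are not independent, since Iglc2 reads enter both its own level and its share of light chain reads. Their number is therefore not set against a rate expected by chance. Igkc in tg5 was 370 CPM, where the other aADM2-tg libraries had 4.55 to 85.1 CPM. The Igkv segments together were at 144 CPM in tg5, where the other aADM2-tg libraries had 2.56 to 41.0 CPM. The share of Iglc2 among light chain reads in tg2 was 13.7 percent, where the other aADM2-tg libraries had 2.67 to 4.02 percent. Iglc2 in WT5 was 1.85 CPM, where the other WT libraries had 0.332 to 0.734 CPM, and this rests on 33 reads.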

How the results depend on the processing

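The number of the 9 genes called higher was 1. It was 4 in DESeq2, 2 with a filter at a mean of 10 CPM, 2 without WT1 and tg2 together, and 0 both with the duct score as a term and in the 5 libraries with little duct RNA. It ranged from 1 to 3 when each library was left out, with 3 without tg2 or tg3. The number called lower was 0 in every edgeR, limma and DESeq2 setting run, and 0 at an unadjusted p of 0.05 in edgeR. Over all tested genes, 2285 were called higher, with 1370 (without WT2) to 3050 (without tg2) when a library was left out, 995 with the duct term and 1 in the 5 libraries with little duct RNA. Genes called lower numbered 2107, with 1609 (without WT2) to 3629 (without tg2) when a library was left out, 3622 without WT1 and tg2, and 34 in the 5 libraries with little duct RNA, where there are fewer samples. The other causes were not tested. When a library was left out, the log2 change of Ms4a1 ranged from -0.4005 (without tg1) to 0.7381 (without tg3) and that of Pax5 from -0.08358 (without tg1) to 0.8814 (without WT3). Of 181 refitted log2 changes of the 9 genes 166 kept direction and side of the threshold, 10 newly passed it, 2 lost it and 3 turned sign. The mean share of lambda light chain was 5.41 percent in aADM2-tg and 4.99 percent in WT with Iglc2, and 9.25 percent in aADM2-tg and 9.91 percent in WT with all lambda genes, so the order of the means turned. No test was run on it.

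With the replicate number as a block, 1 of the 9 genes was called higher, 1853 of all genes were higher and 2114 lower, and Ms4a1 had a log2 change of -0.1033. Samples of the same number shared only that number: their deviations correlated at 0.489, 0.671, -0.375, -0.254 and 0.0397, and not every library correlated best with its own number. The pseudocount planned for genes under the expression filter was not run, because all 9 passed it. At 3 counts the floor is near the level of Iglc2 and Pax5 in tg3, so their low end is limited by depth.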
